A study of Mus musculus with 6 samples.

Results

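The cytosolic ribosome is built from ribosomal RNAs and a set of ribosomal proteins, most of them encoded by a single active gene in the mouse. Proteins named Rpl and Rplp belong to the large subunit and those named Rps, with Rpsa, to the small subunit. Their messenger RNAs usually begin with a 5' terminal oligopyrimidine tract (TOP), a C followed by C and T bases, through which mTORC1 and the RNA-binding protein LARP1 control their translation and stability. A few genes have close paralogs whose names end in l or l1. Some of these are made mainly in particular tissues, such as Rpl3l in striated muscle and Rpl39l in male germ cells.

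The genes described here were chosen by symbol. They are 81 of the 22984 genes of the deposited table. Of these, 76 are core ribosomal protein genes (46 of the large subunit and 30 of the small subunit) and 5 are paralogs, Rpl39l, Rpl22l1, Rps27l, Rpl7l1 and Rpl3l, which were kept apart. A further 31 symbols that start with Rpl or Rps fell outside the naming rule, among them 13 named as pseudogenes, the ribosomal protein S6 kinases and the ribosomal protein gene Rps3a1. The study compared mouse bone marrow mesenchymal stem cells, the adherent stromal cells of marrow, of genotype Grx2+/+ (wild type, 3 libraries) and Grx2-/- (knockout, 3 libraries). Grx2 is glutaredoxin 2, a mostly mitochondrial thiol-disulfide oxidoreductase encoded by Glrx2. The labels give no strain, age, treatment or passage, and the prefix in O-BMSCs, the name in the design text, is not expanded. Nothing in them says that the replicates were separate animals or cultures. The p-values below therefore reflect the spread among the 6 libraries, which may be technical.

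Glrx2 was listed at 3.57, 3.74 and 3.54 FPKM (fragments scaled to gene length and library depth) in wild type replicates 1 to 3. The knockout libraries were listed at 0.0046, 0 and 0 FPKM. Implied depth was 40797879 to 41794919 reads per library. Of 11083 genes tested (mean FPKM of at least 1), 4737 were higher and 2728 lower in knockout by limma with trend on log2(FPKM + 1), two-sided, at a Benjamini-Hochberg adjusted p under 0.05. With median-of-ratios scaling these were 3797 and 3571, and with quantile normalization 3413 and 3945. The median log2 fold change of all tested genes was 0.085, and quantile normalization shifted it by -0.11 to -0.026. All 14 listed mesenchymal stromal markers were above 0 in both groups. Of these, 6 rose, 7 fell and 1 did not pass, and their summed level was 7430 to 8444 FPKM in wild type and 4906 to 5647 FPKM in knockout.

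The 5' ends of several genes are shown so that the letters around the annotated start can be compared between paralogs, their partners and core genes that begin with a pyrimidine run. Of the 81 genes, 61 had at least 1 start window in RefSeq (build GRCm38.p6, another build than the GRCm39 of the deposited values), matched by symbol. Each line gives 15 bases before and 15 bases from the annotated start, 5′ to 3′, with every run of at least 5 bases that are C or T in capitals. Where a gene had several windows, only the window listed first is shown. For Rpl22 the window shown has no such run, but another window (chr4:152324421-152324450, plus strand) holds the runs CTTCT and CTCCC.
Rpl39l (chr16:10170213-10170242, plus strand): CTCCCaggCCTTTCCggaTTTCCggtggtc
Rpl39 (chrX:37085208-37085237, minus strand): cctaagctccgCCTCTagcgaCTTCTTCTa
Rpl22l1 (chr3:28805493-28805522, plus strand): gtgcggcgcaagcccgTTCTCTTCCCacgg
Rpl22 (chr4:152325711-152325740, plus strand): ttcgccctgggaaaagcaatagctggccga
Rpl7l1 (chr17:46782642-46782671, minus strand): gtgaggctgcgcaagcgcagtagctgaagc
Rps27 (chr3:90213634-90213663, minus strand): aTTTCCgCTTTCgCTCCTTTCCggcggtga
Rps6 (chr4:86857353-86857382, minus strand): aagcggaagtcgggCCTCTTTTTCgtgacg
Rps10 (chr17:27635230-27635259, minus strand): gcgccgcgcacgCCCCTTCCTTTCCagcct
Rpl35 (chr2:39005117-39005146, minus strand): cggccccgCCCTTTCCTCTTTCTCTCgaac
Rpl38 (chr11:114668565-114668594, plus strand): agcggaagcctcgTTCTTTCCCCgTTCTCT
Rps18 (chr17:33955651-33955680, minus strand): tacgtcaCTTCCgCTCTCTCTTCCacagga

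Rps27, Rps6, Rps10, Rpl35, Rpl38 and Rps18 have a C at the annotated start followed by at least 4 bases that are C or T. That pattern was in 13 of 66 core windows (19.7%), in 2.31% of the windows of tested genes and in 2.51% of all 32851 windows. Allowing a C followed by at least 7 such bases within 20 bases on either side of the annotated start, it was in 43.9% of core windows, 13.3% of the windows of tested genes and 12.6% of all windows. The motif CCGGAAG, searched on both strands of the 300 bases of each window, was in 36.4% of core windows, 18.3% of the windows of tested genes and 8.86% of all windows. Other motifs were searched in the same way. AAGATGGC was in 10.6% of core windows and 4.53% of the windows of tested genes, and GGGCGG in 60.6% and 64.3%. RefSeq starts can lie some bases from the true start, so a match describes only the letters of the window. Among the 13 core genes with the exact pattern, 9 were lower in knockout and 4, Rpl28, Rpl38, Rps18 and Rps21, did not pass. Of all 76 core genes 69.7% were lower, and of all tested genes 24.6%. The exact pattern was in 19.1% of the windows of lower core genes and in 21.1% of the windows of those that did not pass. For the looser pattern the shares were 48.9% (23 of 47 windows) and 31.6% (6 of 19). Neither difference was tested.

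Most core ribosomal protein genes were lower in the knockout libraries, by small and uneven amounts. Of 76 core genes, all of which were tested, 53 fell, 0 rose and 23 did not pass (69.7% lower; of all tested genes, 24.6% were lower, 42.7% higher and 67.4% either). At an unadjusted p under 0.05, 1 core gene was higher, and voom on reads recovered from the FPKM also called 0 higher. The median log2 fold change was -0.14, against 0.085 for all tested genes, a gap of -0.22. The gap was -0.056 with quantile normalization and -0.14 with no filter on low values. The point estimate was below 0 for 70 core genes and above 0 for 6. All knockout libraries lay below all wild type libraries for 58 core genes and above them for 1, Rpl36, where 27.4% and 45.7% of all tested genes were separated in these directions. The direction of the list held with every scaling tried, but with quantile normalization 4 core genes, Rps15, Rplp1, Rpl37a and Rps21, were called higher and 39 lower.

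**Figure D1:**
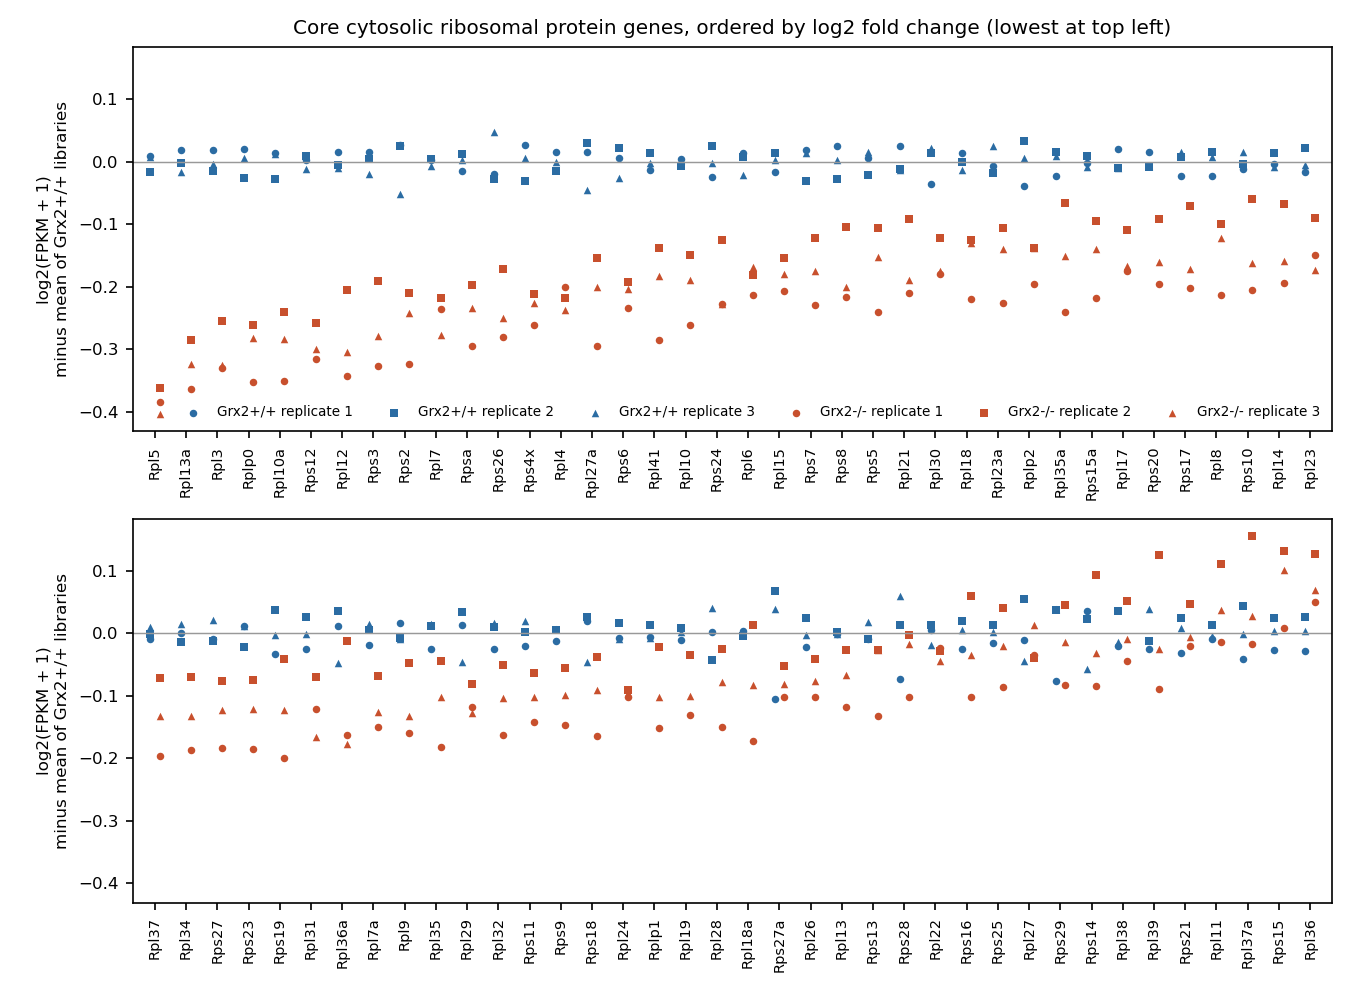
Level of each of the 76 core ribosomal protein genes in each library, as log2(FPKM + 1) minus the mean of the 3 Grx2+/+ libraries (vertical axis), genes ordered by log2 fold change; blue marks are Grx2+/+ and red-brown marks Grx2-/- libraries, with marker shape for the replicate. The genes run from Rpl5 at the low end (log2 fold change -0.38) to Rpl36 at the high end (0.082), and knockout replicate 2 is the highest knockout library for 72 genes.

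The knockout libraries differed among themselves more than the wild type libraries did. Knockout replicate 2 had the highest value within its group for 72 of 76 core genes and knockout replicate 1 the lowest for 66. Relative to the wild type mean, the median core gene was at -0.19, -0.073 and -0.14 on the log2 scale in knockout replicates 1 to 3, and at -0.0069, 0.0091 and 0.0021 in wild type replicates 1 to 3. The median coefficient of variation over replicates was 1.39% in wild type and 3.86% in knockout. Without knockout replicate 1, 49 core genes were lower and 2, Rps15 and Rpl36, higher; without knockout replicate 2, 60 were lower and 0 higher.

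Summed over the 76 genes, core ribosomal protein transcripts took 16.8%, 16.6% and 16.8% of the summed FPKM in wild type replicates 1 to 3. The knockout libraries stood at 14.5%, 15.1% and 14.7%. Every knockout library was below every wild type library. As shares of reads, the values were 5.25% ± 0.0127 (SD, n = 3) in wild type and 4.70% ± 0.161 in knockout. Both subunits were lower. Large subunit genes took 9.63% ± 0.0448 and 8.45% ± 0.179 of the summed FPKM, and small subunit genes 7.10% ± 0.0346 and 6.32% ± 0.154. The ratio of summed large to small subunit FPKM was 1.36 ± 0.00224 in wild type and 1.34 ± 0.0049 in knockout.

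**Figure D2:**
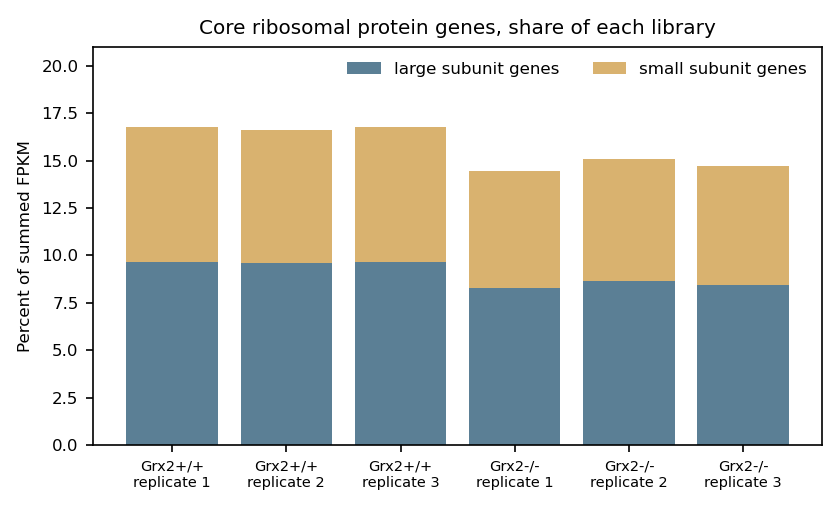
Stacked bars give, for each library, the percent of summed FPKM (vertical axis, from 0) held by the 46 large subunit and 30 small subunit core genes. The wild type bars reach 16.6% to 16.8% and the knockout bars 14.5% to 15.1%.

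In these bulk samples, fewer cells of a type and less RNA per cell cannot be told apart. Other marker lists also differed between the groups, some lower and some higher in knockout. The 13 neutrophil markers summed to 923 to 2674 FPKM in wild type and 6.32 to 8.27 FPKM in knockout, with Retnlg and Ly6g at 0 in every knockout library. The 10 endothelial markers summed to 25.98 to 31.5 and 5.08 to 5.81 FPKM, with Tie1 and Cldn5 at 0 in knockout. Of the 14 macrophage markers, none at 0, 12 rose and 2 did not pass, and their sum was 1694 to 1832 FPKM in wild type and 2876 to 3859 FPKM in knockout. Of the 14 cycling cell markers, 11 rose and 3 did not pass, and their sum was 357 to 429 FPKM in wild type and 678 to 796 FPKM in knockout. For comparison, 42.7% of all tested genes were higher and 24.6% lower. Erythroid and lymphoid markers each summed to at most 2.60 FPKM in any library. The part of these lists in the ribosomal protein result was not tested.

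Among large subunit genes, 33 fell, 0 rose and 13 did not pass, with a median of -0.14 (24.6% of all tested genes were lower). At an unadjusted p under 0.05, 1 of the 46 was higher. The lowest fold change of the core was that of Rpl5, which encodes a carrier of 5S ribosomal RNA. Replicates 1 to 3 gave 449.8, 442 and 449.7 FPKM in wild type, and 342, 348 and 338 FPKM in knockout. The groups were far apart, with a log2 fold change of -0.38 ± 0.028 (SE; limma adjusted p = 9.01e-06), a difference of -23.4% of the wild type mean.

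Rpl11, whose protein joins Rpl5 and 5S RNA in the particle that can also bind MDM2, did not follow it. Its values were 339, 345 and 340.3 FPKM in wild type and 338, 369 and 350.2 FPKM in knockout, so the groups overlapped. The log2 fold change was 0.045, with a 95% interval of -0.042 to 0.13 and a limma adjusted p of 0.32. The FPKM ratio of Rpl5 to Rpl11 within a library was 1.31 ± 0.0238 in wild type and 0.974 ± 0.0361 in knockout, with no overlap. An exact two-sided permutation test of this ratio, a pair set side by side after the values were seen, gave p = 0.1, the smallest that 3 against 3 libraries allow.

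Rpl13a, a large subunit protein often used as a reference gene, was at 1184, 1168 and 1157 FPKM in wild type and at 909, 959.7 and 934 FPKM in knockout. Every knockout value was lower (-0.32 ± 0.033, limma adjusted p = 5.77e-05). Rpl3, which lies near the peptidyl transferase centre, went from 788 ± 9.65 to 639 ± 18.7 FPKM. Rpl10a, a protein of the L1 stalk, went from 557 ± 9.09 to 455 ± 17.5 FPKM, and Rpl12, at the base of the P stalk, from 1196 ± 11.1 to 983 ± 49.2 FPKM. In each of these 3 genes the groups were apart.

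The P stalk, which recruits translation factors, is formed by Rplp0, Rplp1 and Rplp2. Rplp0, another common reference gene, was at 1655, 1604 and 1639 FPKM in wild type and at 1279, 1362 and 1343 FPKM in knockout, below every wild type value (-0.30 ± 0.036, limma adjusted p = 0.000158). Rplp2 was at 1039, 1092 and 1072 FPKM in wild type and at 933, 970.3 and 970.1 FPKM in knockout (-0.16 ± 0.035, limma adjusted p = 0.00425). Rplp1 was at 2611, 2648 and 2609 FPKM in wild type and at 2360, 2584 and 2443 FPKM in knockout, without overlap but short of the threshold (-0.092 ± 0.041, limma adjusted p = 0.0782). Rplp1 was called lower under TPM rescaling (-0.13), median-of-ratios scaling (-0.18), rescaling on the other genes (-0.17) and without knockout replicate 2 (-0.13), and higher with quantile normalization (0.19). With quantile normalization the call of Rplp2 was lost (-0.050).

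Among small subunit genes, 20 fell, 0 rose and 10 did not pass, with a median of -0.14 (24.6% of all tested genes were lower). The number that fell was 13 with no filter on low values, and also 13 without knockout replicate 3 and without wild type replicate 3. None of the 30 was higher at an unadjusted p under 0.05, and voom called 0 higher. The lowest fold change was that of Rps12, at 631, 633 and 624 FPKM in wild type and 506, 526 and 511 FPKM in knockout. The groups were widely separated (-0.29 ± 0.030, limma adjusted p = 5.93e-05). Rps3, an mRNA entry channel protein that also has endonuclease activity, went from 595 ± 7.34 to 495 ± 23.8 FPKM. Rpsa, the small subunit protein also known as the laminin receptor precursor, was at 984, 1003 and 997 FPKM in wild type and at 810.4, 867 and 845 FPKM in knockout (-0.24 ± 0.035, limma adjusted p = 0.000423). Its knockout values were all lower. Rps18, also a common reference gene, was at 1432, 1437 and 1368 FPKM in wild type and at 1259, 1376 and 1326 FPKM in knockout, with overlap (-0.098 ± 0.042, limma adjusted p = 0.0714). It was called lower under TPM rescaling (-0.14), median-of-ratios scaling (-0.19), rescaling on the other genes (-0.17) and without knockout replicate 2 (-0.13).

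The 4 X-linked core genes did not share a call. Rps4x was at 867, 834 and 855 FPKM in wild type and at 711, 736 and 728 FPKM in knockout (-0.23 ± 0.032, limma adjusted p = 0.000315). Rpl10, the last large subunit protein to join in the cytoplasm, went from 1298 ± 5.1 to 1131 ± 44 FPKM (-0.20 ± 0.037). Rpl36a, at 495 ± 14.6 and 457 ± 29.3 FPKM, did not pass (-0.12 ± 0.049), though it was lower without knockout replicate 2 (-0.17) and with median-of-ratios scaling (-0.21). Rpl39 was at 974, 982 and 1018 FPKM in wild type and at 931, 1080 and 973 FPKM in knockout. Its knockout values spanned the wild type range, with a log2 fold change of 0.003 and a 95% interval of -0.12 to 0.13.

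At the other end of the order stood 8 core genes with the highest fold changes: Rpl36, Rps15, Rpl37a, Rpl11, Rps21, Rpl39, Rpl38 and Rps14. None of them passed. Rpl36 was at 293, 304 and 299 FPKM in wild type and at 309, 326 and 313 FPKM in knockout, above every wild type library (0.082 ± 0.033, limma adjusted p = 0.0562). It was called higher without knockout replicate 1 (0.098). Rps15 was at 1020, 1057 and 1042 FPKM in wild type and at 1046, 1139 and 1115 FPKM in knockout, with overlap (0.081 ± 0.040, limma adjusted p = 0.107). It was called higher without knockout replicate 1 (0.12) and with quantile normalization (0.19). The intervals of Rpl38 (-0.084 to 0.081), Rps21 (-0.069 to 0.082) and Rps14 (-0.13 to 0.11) reached no further than those bounds, so a change as large as that of Rpl5 (-0.38) was outside them. The SD of the log2 fold change over the 76 genes was 0.095, and the median SE of a single gene 0.037.

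Levels also varied between genes. Mean FPKM over the 6 libraries ran from 77.6 for Rpl21 to 2542 for Rplp1, with a median of 731, and 49 of the 100 genes with the highest mean FPKM of the table were core members. After Rplp1 came Rpl41 (2194 FPKM), Rps2 (1707) and Rplp0 (1480). The lowest after Rpl21 were Rps15a (110.3), Rpl22 (140) and Rps20 (174). These low FPKM values are per length, and the gene lengths implied by the table were 5136 bases for Rps15a, 3446 for Rps20, 2343 for Rpl22 and 468 for Rplp1. Each core gene had 5466 to 92340 reads in a library. Ribosomal protein genes have many processed pseudogenes with near-identical sequence, and the handling of reads that match several places is not given in the sources used here, so levels of single genes are uncertain. Over the 76 core genes, the log2 fold change had a Spearman correlation of -0.41 with the implied gene length and -0.077 with mean FPKM. These are across genes that share the same 6 libraries, and the same correlation with length over all 11083 tested genes was -0.13.

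The paralogs did not move as a group. Of the 4 that were tested, 2 fell, 0 rose and 2 did not pass (24.6% of all tested genes were lower). At an unadjusted p under 0.05 none was higher, and voom called 0 higher. Rpl39l, which can replace Rpl39 at the peptide exit tunnel, was at 49.5, 43.5 and 43.3 FPKM (1737, 1540 and 1544 reads) in wild type replicates 1 to 3. It was at 9.4, 9.01 and 9.47 FPKM (338, 319 and 334 reads) in knockout replicates 1 to 3. The knockout level was far below the wild type level in every library, with a log2 fold change of -2.17 ± 0.057 (limma adjusted p = 4.29e-08) and a wild type to knockout ratio of 4.89. Rpl39l stood at 4.59% ± 0.438 of the FPKM of Rpl39 in wild type and at 0.939% ± 0.0925 in knockout. The 2 transcripts share coding sequence closely, so the split of reads between them is uncertain.

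Rpl22l1, whose expression is known to be repressed by its partner Rpl22, was at 272, 260.3 and 264 FPKM in wild type and at 172, 190 and 173 FPKM in knockout. The groups were apart (-0.57 ± 0.044, limma adjusted p = 1.05e-05). Rpl22, at 142, 143 and 140 FPKM in wild type and 139, 139 and 137 FPKM in knockout, was lower in every knockout library by a few FPKM and did not pass, with a log2 fold change of -0.032 ± 0.028, with a 95% interval of -0.096 to 0.032. It was called lower with median-of-ratios scaling (-0.12), with quantile normalization (-0.092) and when rescaled on the other genes (-0.11). By FPKM, Rpl22l1 was more abundant than Rpl22 in all 6 libraries. The ratio of Rpl22l1 to Rpl22 was 1.88 ± 0.048 in wild type and 1.29 ± 0.0687 in knockout.

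**Figure D3:**
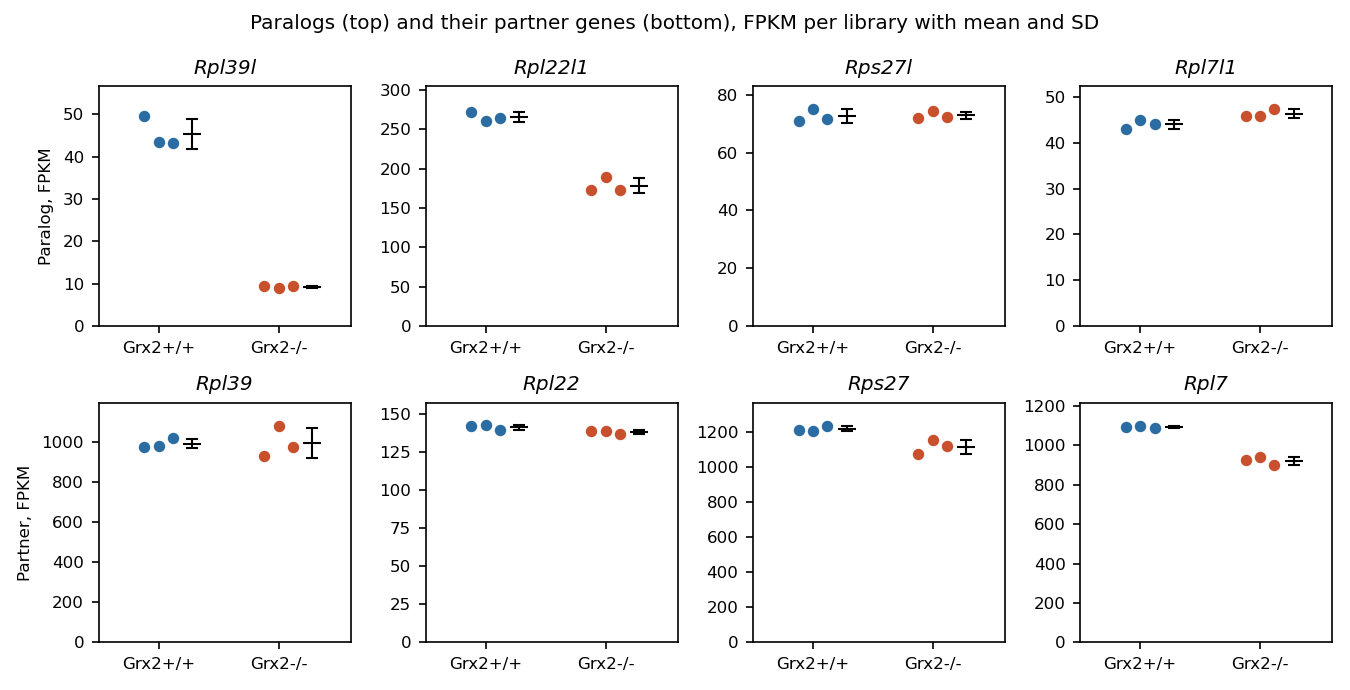
FPKM per library (points, vertical axes from 0) with the group mean and SD (black bars, n = 3) for 4 paralogs in the upper row and their partner genes in the lower row, Grx2+/+ in blue and Grx2-/- in red-brown. Rpl39l falls from 45.4 to 9.3 FPKM and Rpl22l1 from 265 to 178 FPKM, while the Rpl39 points overlap between groups and the Rpl22 points all lie between 137 and 143 FPKM.

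Rps27l, a target of p53 that closely resembles Rps27, was at 70.9, 75.2 and 71.7 FPKM in wild type and at 72.0, 74.3 and 72.1 FPKM in knockout. The groups overlapped, with a log2 fold change of 0.0043 and a 95% interval of -0.076 to 0.084. It was called lower with median-of-ratios scaling (-0.085) and quantile normalization (-0.11). Rpl7l1, a nucleolar relative of Rpl7 in large subunit assembly, was at 43.0, 45.0 and 44.2 FPKM in wild type and at 45.8, 45.9 and 47.4 FPKM in knockout. All knockout values were higher but the gene did not pass (0.073 ± 0.034, limma adjusted p = 0.0869). Its partner Rpl7 fell (-0.24 ± 0.031). Rpl3l, the striated muscle relative of Rpl3, had 1, 0 and 3 reads in wild type and 0 in each knockout library and was not tested. For the 4 pairs Rpl39l to Rpl39, Rpl22l1 to Rpl22, Rps27l to Rps27 and Rpl7l1 to Rpl7, the exact two-sided permutation test of the log2 ratio gave p = 0.1 each, adjusted p = 0.1, the smallest the design allows. The knockout minus wild type differences of the log2 ratio were -2.29, -0.54, 0.13 and 0.32.

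Other genes of the ribosome and its synthesis were taken from lists written from textbook knowledge. Of 6 further ribosomal proteins outside the naming rule, 2 fell, 0 rose and 4 did not pass. This is 33.3% lower, near the 24.6% of all tested genes. None was higher at an unadjusted p under 0.05 and voom called 0 higher. Rack1, the scaffold protein at the small subunit head, was at 1021, 988 and 1006 FPKM in wild type and 779, 863 and 810.3 FPKM in knockout (-0.30 ± 0.043). Rps3a1 went from 1228 ± 23.8 to 1032 ± 20.5 FPKM (-0.25 ± 0.033). Both were below wild type in every knockout library. Fau, which encodes a ribosomal protein fused to a ubiquitin-like protein, had -0.097 and did not pass, but passed as lower with median-of-ratios scaling (-0.19) and without knockout replicate 2 (-0.14).

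Of 18 translation factors and related proteins whose messages carry a TOP, 11 fell, 0 rose and 7 did not pass, with a median of -0.12 (24.6% of all tested genes were lower). The point estimate was above 0 for 3 of them. At an unadjusted p under 0.05, 2 were higher, and voom called 0 higher. Npm1, the nucleolar chaperone nucleophosmin, was at 399.5, 437 and 409.6 FPKM in wild type and 258, 291 and 277 FPKM in knockout (-0.59 ± 0.052). The elongation factor Eef1a1 went from 5347 ± 144 to 4539 ± 54.2 FPKM, Eef2 from 1088 ± 29.4 to 930 ± 5.38 FPKM and Eef1b2 from 318 ± 5.7 to 246 ± 12.9 FPKM. Eif3e, a subunit of initiation factor 3, went from 213 ± 7.58 to 156 ± 0.421 FPKM. The groups were apart for all 5.

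Host genes of small nucleolar RNAs, many of which have TOP starts as well, had a median of -0.42. Of 15, 12 fell, 1 rose and 2 did not pass (80.0% lower, where 24.6% of all tested genes were lower and 42.7% higher). Snhg5 was at 25.7, 27.5 and 27.5 FPKM in wild type and 15.9, 16.4 and 17.0 FPKM in knockout (-0.68 ± 0.043), Snhg18 had -0.63 and Zfas1 -0.48, all below wild type in every library. The member that rose was Snhg20 (0.19), named after its value was seen. Under quantile normalization, and likewise under median-of-ratios scaling, 13 of the list fell and 0 rose. Gas5 overlapped between the groups at 201 ± 9.65 and 191 ± 5.99 FPKM (-0.073 ± 0.043), and was called lower with median-of-ratios scaling (-0.16).

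**Figure D4:**
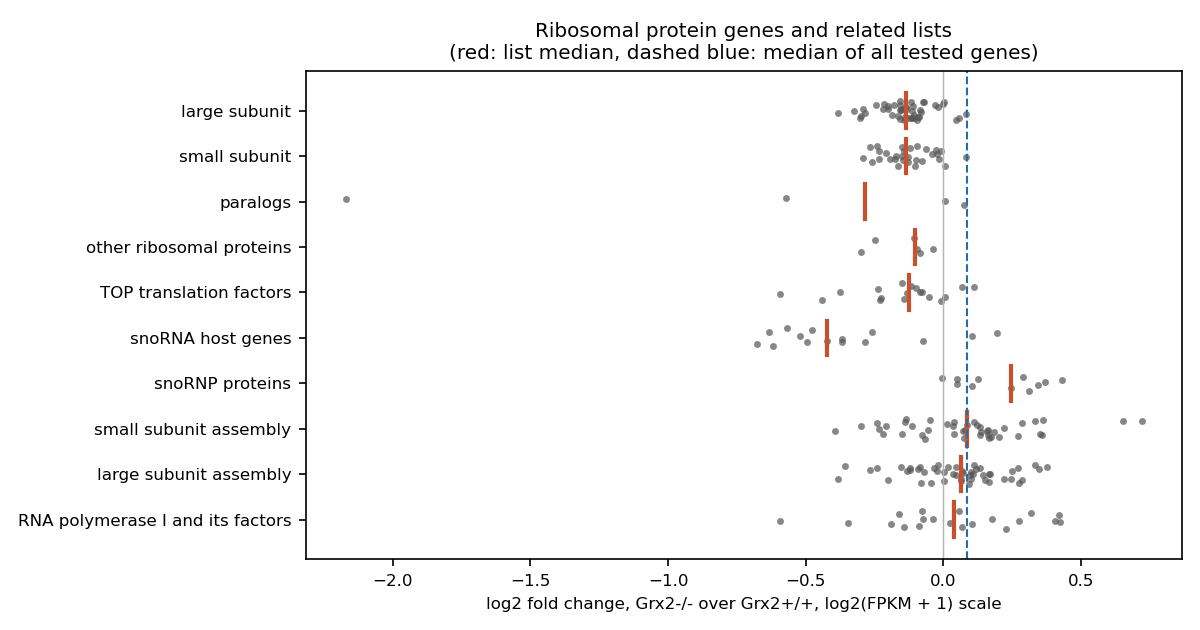
Each point is the log2 fold change (horizontal axis, Grx2-/- over Grx2+/+) of a tested gene in 10 groups of genes (vertical axis; vertical scatter within a row has no meaning); red ticks are group medians and the dashed blue line the median of all tested genes, 0.085. Large and small subunit genes both have medians of -0.14, while snoRNP proteins have a median of 0.25.

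The lists of proteins that assemble ribosomes are read beside the 42.7% of all tested genes that were higher and the 24.6% that were lower. Of 11 proteins of small nucleolar ribonucleoproteins (snoRNPs), 6 rose, 0 fell and 5 did not pass, with a median of 0.25; none was lower at an unadjusted p under 0.05, and voom called 0 lower. Nop10, a pseudouridylation cofactor, went from 54.6 ± 2.85 to 74.0 ± 1.27 FPKM, and Fbl, the methyltransferase fibrillarin, from 76.8 ± 3.99 to 91.4 ± 5.35 FPKM. Fbl did not pass with quantile normalization (0.11), under which 5 of the list rose and 1 fell. Under median-of-ratios scaling the counts were 6 and 1. Of 43 small subunit assembly factors, 17 rose, 7 fell and 19 did not pass, and of 49 large subunit assembly factors 18 rose, 9 fell and 22 did not pass. These counts were no higher as a share than those of all tested genes in either direction. Their directions turned with scaling: under median-of-ratios scaling there were 8 higher and 14 lower among the small subunit factors and 9 higher and 16 lower among the large subunit factors, and with quantile normalization 8 and 15, and 7 and 21. Under TPM rescaling they were 13 and 12, and 12 and 12. Wdr36 (0.65 ± 0.036) and Tsr2, the chaperone of Rps26 (0.72 ± 0.054), were among the former and Eif6, which keeps the subunits apart (0.38 ± 0.033), among the latter. Rps26 itself went from 1474 ± 42.2 to 1254 ± 49.2 FPKM.

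Of 20 subunits and factors of RNA polymerase I, which transcribes ribosomal RNA, 7 rose, 5 fell and 8 did not pass, near or below the 42.7% higher and 24.6% lower of all tested genes. These became 6 and 8 with median-of-ratios scaling, 6 and 6 under TPM rescaling and 4 and 9 with quantile normalization. Ubtf, its upstream binding factor, went from 11.3 ± 0.434 to 15.4 ± 0.419 FPKM. Of 9 tested genes of the MYC network, 2 rose, 5 fell and 2 did not pass. Myc, a transcriptional activator of ribosome synthesis, was at 52.3, 45.9 and 48.4 FPKM in wild type and at 30.0, 25.4 and 25.96 FPKM in knockout (-0.83 ± 0.071), with no overlap. In the same list Mxi1 fell (-0.97 ± 0.052) and Mxd3 rose (1.08 ± 0.083). Of 18 genes of mTORC1 and TOP control, 5 rose, 5 fell and 8 did not pass, with 5 and 9 both under quantile normalization and under median-of-ratios scaling and 5 and 7 under TPM rescaling. Eif4ebp1, a translational repressor that mTORC1 inactivates, fell from 160 ± 14.8 to 86.6 ± 10.3 FPKM. Larp1 fell slightly (-0.13 ± 0.034), Rptor, the mTORC1 scaffold, rose (0.61 ± 0.053), and Mtor was at 0.086 ± 0.048 and did not pass. Of the 75 mitochondrial ribosomal protein genes, 33 rose, 2 fell and 40 did not pass, with a median of 0.11. The count that rose was near the 42.7% higher among all tested genes, whose median was 0.085. The count that fell, 2.67% of the list, was below the 24.6% lower among all tested genes. The difference between this list and the core was not tested. Under quantile normalization 15 of the mitochondrial genes rose and 15 fell, and under median-of-ratios scaling 23 and 7.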

How the data were processed

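Per the labels' protocols, TRIzol RNA was made into libraries with the VAHTS Universal V6 kit. The authors deposited FPKM for 22984 genes. HISAT2, HTSeq, R 3.2.0 and build GRCm39 are named in the submitters' processing notes; the sources used here give neither strand setting nor annotation, so reads of overlapping or antisense genes cannot be told apart. FPKM does not correct for shifts in composition. Whole reads were recovered for 100.0% of genes (tolerance 1e-06). The 11083 genes averaging at least 1 FPKM were fitted as log2(FPKM + 1) with limma 3.58.1 in R 4.3.3 (eBayes with trend, two-sided, Benjamini-Hochberg adjusted over all tested genes, threshold 0.05); the scale understates changes of low genes. The members and lists were chosen with earlier results of these data known. Named genes follow a rule: Glrx2, all paralogs, the 8 largest and 8 smallest fold changes, the 4 highest and 4 lowest levels, stalk, 5S, X-linked and reference genes, and up to 3 of each list by p; some are not described. Rpl7, Rps26, Snhg20 and the genes shown only for their start letters lie outside it and were chosen after their values were seen. No list was tested as a set. Marker lists were given as summed FPKM. The fit was also run on simulated data with known changes, and the outcome is not reported here. The simulation gave both groups the same scatter setting, so it does not cover the larger spread among the knockout libraries. Alternatives changed 1 choice at a time: pseudocount 0.1 or 0.01, no filter, a minimum mean of 5 FPKM, scaling by median-of-ratios, TPM or quantiles, no trend, robust estimation, a replicate block, and each library left out. Chosen after seeing the data were voom on recovered reads, rescaling on non-member genes, and leaving out knockout replicate 1 together with wild type replicate 2. All but the filter alternatives tested the same genes. Figures were drawn with matplotlib 3.10.9. Values of some named genes are not reported here.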

Additional observations from a re-analysis of the deposited data

How the results depend on the processing

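Over the 19 alternative fits, 36 to 67 core genes were lower, within 1.5 times the 53 reported, and 30 were lower in every fit. With each library left out in turn, 36 to 60 were lower, 0 to 2 higher, the median ran from -0.17 to -0.11 and the difference in share of summed FPKM from -2.14 to -1.80 percentage points. The core median was -0.18 with TPM rescaling, -0.23 with median-of-ratios scaling, -0.21 when rescaled on the other genes and -0.082 with quantile normalization. Core genes called higher numbered 4 with quantile normalization and 2 without wild type replicate 2 and knockout replicate 1. The replicate block gave 54 lower and 1 higher; same-numbered libraries deviated together by correlations of 0.11, 0.12 and 0.02, and wild type replicate 3 correlated best with knockout replicate 1, so the numbers were not taken as pairs. Rps27l turned lower with median-of-ratios scaling (-0.085) and quantile normalization (-0.11), Rplp1 higher with quantile normalization (0.19), and Rpl7l1 passed without wild type replicate 2 and knockout replicate 1 (0.097), with 0.055 to 0.088 over the fits that left out 1 library. The causes were not tested. With no filter 41 were lower, with 22984 genes tested. The calls of Rpl39l and Rpl22l1 held in all 19. Voom on recovered reads called 4720 genes higher and 2765 lower over all tested genes, and 53 core genes lower.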

Other observations

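The counts below stand beside the 42.7% of all tested genes that were higher and the 24.6% that were lower. Of 14 carriers and chaperones of ribosomal proteins, 9 rose, 3 fell and 2 did not pass, with a median log2 fold change of 0.20. Aarsd1 (0.75 ± 0.048) and Aamp (0.30 ± 0.035) were among those higher in knockout libraries. With quantile normalization 5 rose and 4 fell. Of 20 genes of ribosome quality control, 5 rose, 7 fell and 8 did not pass. Ddrgk1 (0.47 ± 0.046) and Ufc1 (0.33 ± 0.044), which attach UFM1 to the large subunit, rose. With quantile normalization 5 of these genes rose and 12 fell. Of 9 tested genes that link ribosomal proteins to p53, 4 rose, 3 fell and 2 did not pass, with 1 and 4 both under quantile normalization and under median-of-ratios scaling and 3 and 4 under TPM rescaling. Cdkn1a, the p53 target p21, went from 193 ± 13.9 to 264.5 ± 3.89 FPKM, and Mdm4 from 11.5 ± 0.218 to 6.53 ± 0.257 FPKM. Trp53 rose by a small amount (0.14 ± 0.033), and did not pass with median-of-ratios scaling (0.054). Mdm2 (0.29 ± 0.098) overlapped between the groups, with a limma adjusted p of 0.0303, and did not pass with several settings, among them median-of-ratios scaling (0.20), quantile normalization (0.15) and fits without knockout replicate 1 (0.22), knockout replicate 3 (0.30) or wild type replicate 1 (0.22) or 3 (0.26).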
